A study of Bombus terrestris with 8 samples.

Results

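miR-277 and miR-34 are 2 miRNAs of the bumblebee Bombus terrestris whose precursors lie close together on the plus strand of scaffold Group5.1 in genome build v.1.0. They were picked by name from a deposited table of predicted miRNAs, in which they take 2 of 123 rows and 2 of 111 distinct mature sequences. miR-317, the next miRNA along the same strand, was read beside them. Small RNA was sequenced from whole bodies of queen-destined female larvae, pooled by colony and stage. Late-instar queen-destined larvae (LQ) were taken in the fourth instar, and early-instar queen-destined larvae (EQ) in the first or the second. Both groups came from colonies whose queen had been removed, a state in which female larvae can develop as queens, so the stages share that treatment and differ in age. Not all such colonies produced queens, and the study chose those with the highest shares of adult queens. It inferred the caste fate of sampled early-instar larvae from unsampled larvae of the same batches. The late-instar libraries are LQ1, LQ3 and LQ4 and the early-instar libraries are EQ1, EQ3 and EQ4, 3 colony pools per instar. EQ2, which the study set aside after checking its normalization, is given next to them, and LQ2 is not analysed here. A pool mixes all larval tissues, so fewer cells that make a miRNA cannot be told apart from less of it per cell.

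A miRNA is a short RNA cut from a hairpin precursor. It pairs with messenger RNAs mainly through its seed, bases 2 to 8 from its 5′ end, and lowers their translation or stability. In Drosophila, miR-317, miR-277 and miR-34 also sit side by side. Fly miR-277 is known for its control of genes that break down branched-chain amino acids, and fly miR-34 for its part in the ageing of the adult brain and for a level that depends on the hormones of metamorphosis. The miR-34 seed is shared by insects, worms and vertebrates.

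The mature sequences are shown because the seed decides which messages a miRNA can reach. They are given 5′ to 3′ as DNA letters, as deposited, with the seed in capitals.
miR-277: tAAATGCActatctggtacgaca
miR-34: tGGCAGTGttgttagctggttg
miR-317: tGAACACAgctggtggtatct
The 3 seeds differ from one another. Among the distinct mature sequences of the table, 0 others share bases 2 to 8 with any of the 3, and 0 share bases 2 to 7. Each begins with T, as do 66 of the 111. The mature miR-277 has 23 bases and a GC content of 39.1%, miR-34 has 22 bases and 50.0%, and miR-317 has 21 bases and 47.6%, around a table median of 45.5%.

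The precursors are shown because they place each mature sequence on an arm of its hairpin. Here the capitals mark the mature miRNA.
miR-277: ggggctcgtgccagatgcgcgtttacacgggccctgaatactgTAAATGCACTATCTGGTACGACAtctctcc
miR-34: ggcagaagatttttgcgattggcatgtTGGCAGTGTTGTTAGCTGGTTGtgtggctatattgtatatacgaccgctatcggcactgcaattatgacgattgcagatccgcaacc
miR-317: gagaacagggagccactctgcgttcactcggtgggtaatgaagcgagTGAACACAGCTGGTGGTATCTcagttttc
miR-277 was read from the 3′ arm (positions 44 to 66 of a precursor of 73 bases) and miR-34 from the 5′ arm (positions 28 to 49 of 114 bases). The miR-34 precursor was among the longest listed. Precursors ran from 55 to 118 bases with a median of 75, and 3 of 112 distinct ones, its own included, were at least as long. RNAfold folded each of the 3 into a single hairpin loop. The minimum free energy was -30.60 kcal/mol for miR-277, with 19 of its 23 mature bases paired, and -48.60 kcal/mol for miR-34, with 18 of 22 paired. For miR-317 it was -36.00 kcal/mol, with 17 of 21 paired.

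The miR-277 precursor spans Group5.1:3556319-3556391 and the miR-34 precursor Group5.1:3562429-3562542, with 6037 bases between them. miR-317 spans Group5.1:3530338-3530413, 25905 bases before miR-277. The table lists 8 precursors on this scaffold, and the nearest of the other 5, the predicted miRNA MC1003, ends 197447 bases before miR-317. Host genes and introns at these positions were not analysed here. The mean levels of the 3, set along the locus, are plotted by distance.

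**Figure D1:**
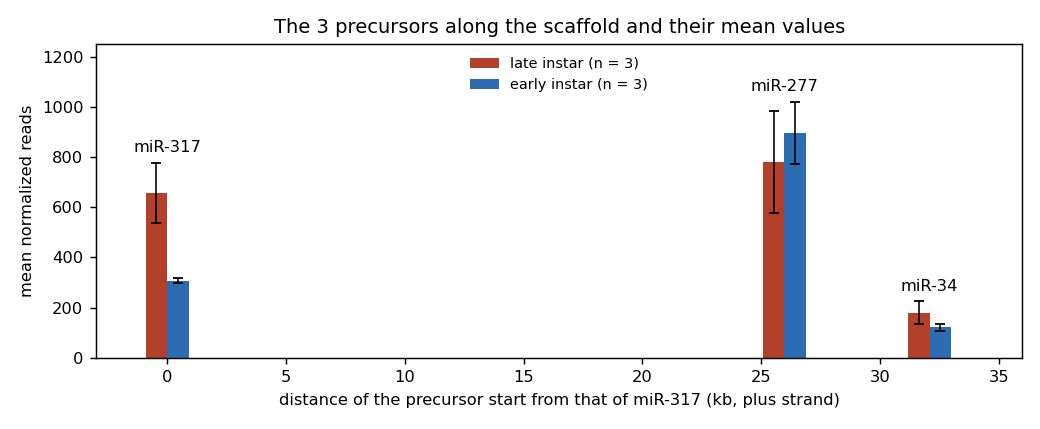
Mean normalized reads of miR-317, miR-277 and miR-34 in late-instar (red, left of each pair) and early-instar (blue) queen-destined larvae, placed by the distance in kb of each precursor's start from that of miR-317. Bars are means of 3 libraries and whiskers 1 SD. The late-instar mean is above the early-instar mean for miR-317 and miR-34 and below it for miR-277. The whiskers of the instars overlap for miR-277 and, narrowly, for miR-34.

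miR-277 was the most abundant of the 3 on average in both instars, and no change between instars was detected. Its normalized reads (the deposited value, a read number scaled by library) were 582 in LQ1, 988 in LQ3 and 769 in LQ4, against 823 in EQ1, 1040 in EQ3 and 823 in EQ4. The ranges overlap, with LQ3 above EQ1 and EQ4. Means were 780 ± 203 in late-instar larvae and 895 ± 125 in early-instar larvae (SD, n = 3 each). The log2 fold change of value + 20, late over early, was -0.22 (SE 0.26, 95% interval -0.75 to 0.32, limma with Benjamini-Hochberg adjustment over 100 rows, adjusted p = 0.581). An exact two-sided permutation test gave p = 0.4.

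miR-34 was the scarcest of the 3 and was higher in each late-instar library than in any early-instar one, by an amount that did not pass the test on the deposited scale. It had 157 normalized reads in LQ1, 231 in LQ3 and 151 in LQ4, against 118 in EQ1, 137 in EQ3 and 108 in EQ4. The ranges do not overlap, and the lowest late-instar library, LQ4, lies just above the highest early-instar one, EQ3. Means were 180 ± 44.6 in late-instar larvae and 121 ± 14.7 in early-instar larvae (SD, n = 3 each), a ratio of 1.48. The log2 fold change was 0.48 (SE 0.25, 95% interval -0.04 to 1.00, limma adjusted p = 0.130). The exact two-sided permutation p was 0.1, the smallest that 3 against 3 libraries allow. Without overlap between instars, miR-34 belongs with 48.8% of the 123 rows of the table, so separation of this kind was common.

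miR-317 rose in late-instar larvae. Its normalized reads were 616 in LQ1, 792 in LQ3 and 564 in LQ4, against 311 in EQ1, 297 in EQ3 and 314 in EQ4. The instars are far apart, with a gap wider than the spread of either. The exact two-sided permutation p was 0.1, as for miR-34, the smallest that 3 against 3 libraries allow. Means were 657 ± 119 in late-instar larvae and 307 ± 9.07 in early-instar larvae (SD, n = 3 each), a ratio of 2.14, and the log2 fold change was 1.04 (SE 0.24, limma adjusted p = 0.00138). Of the 3 miRNAs, 1 therefore passed limma's adjusted threshold of 0.05, on a table where 43.0% of the 100 rows tested passed it and 16.0% passed it as higher in late instars.

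**Figure D2:**
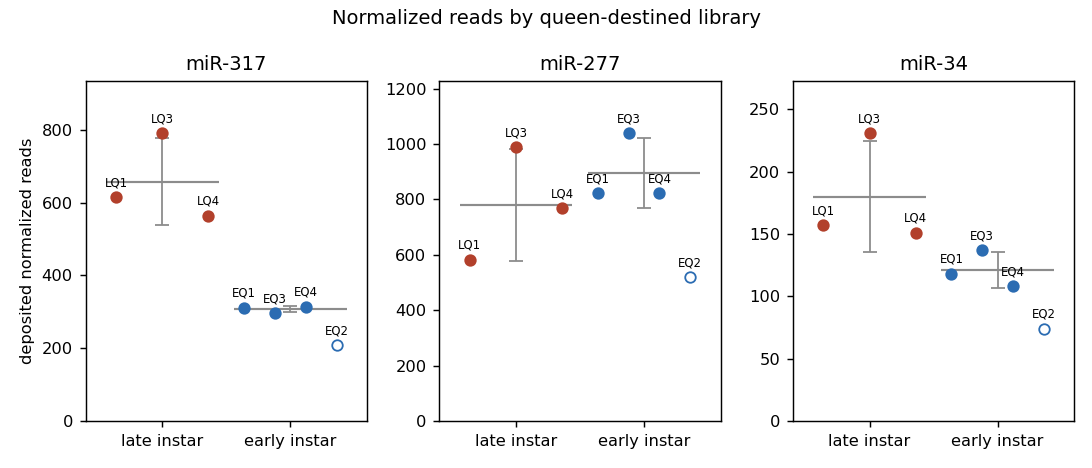
Normalized reads of miR-317, miR-277 and miR-34 in each queen-destined library, late instar (red) left of early instar (blue). Horizontal lines and whiskers are the mean and SD of the 3 filled points of an instar, the open point is EQ2, and each panel has its own axis from 0. Filled points of the instars are apart for miR-317 (564 to 792 against 297 to 314) and miR-34 (151 to 231 against 108 to 137) and overlap for miR-277.

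EQ2 was low for all 3, with 519 normalized reads of miR-277, 74 of miR-34 and 209 of miR-317, and the sum of its table was 62.2% of the mean sum of EQ1, EQ3 and EQ4. As a share of its own table it was like them. miR-277 took 0.369% of the EQ2 table, within the 0.365% to 0.450% of EQ1, EQ3 and EQ4, and within the 0.336% to 0.423% of the late-instar libraries. The share of miR-34 was 0.0748% to 0.0988% in late-instar libraries, against 0.0491% to 0.0593% in the early-instar ones and 0.0526% in EQ2. Shares of miR-34 thus separate the instars over all 7 libraries, as did those of 44.1% of the 111 sequences. With EQ2 among the early-instar libraries, the exact two-sided permutation p was 0.914 for miR-277. It was 0.0571, the smallest 3 against 4 allow, for both miR-34 and miR-317.

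By rank among the 111 sequences, miR-277 held places 24 to 28 in late-instar libraries and 23 to 24 in early-instar ones. miR-34 held places 42 to 45 in late-instar libraries and 48 to 51 in early-instar ones, and miR-317 places 26 to 32 against 36 to 38. In each early-instar library the order of levels was miR-277, miR-317, miR-34, and the ranges of neighbours in it did not overlap. In late-instar libraries the ranges of miR-277 and miR-317 overlap, and in LQ1 miR-317 (616 normalized reads) was above miR-277 (582). miR-34 was the lowest in each library. Levels of different miRNAs also carry any difference in how well their ends join the adapter, which was not tested.

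Within a library, the ratio of miR-277 to miR-34 does not depend on how that library was scaled. It was 3.71 in LQ1, 4.28 in LQ3 and 5.09 in LQ4, against 6.97 in EQ1, 7.59 in EQ3, 7.62 in EQ4 and 7.01 in EQ2. Every late-instar library lay below every early-instar one, EQ2 included. Such separation was common, since over the 4656 pairs of distinct sequences tested the ratio separated the instars, in either direction, in 56.7% without EQ2 and in 51.6% with it. Means were 4.36 ± 0.70 in late-instar larvae and 7.40 ± 0.36 in early-instar larvae (SD, n = 3 each). On the log2 scale of value + 20 the late-instar ratio was lower by 0.70 (log2 difference -0.70, exact two-sided permutation p = 0.1, the smallest possible). With EQ2 the difference was -0.66 (exact p = 0.0571, again the smallest possible).

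The ratio of miR-277 to miR-317 also separated the instars. It was 0.94 in LQ1, 1.25 in LQ3 and 1.36 in LQ4, against 2.65 in EQ1, 3.50 in EQ3, 2.62 in EQ4 and 2.48 in EQ2, a log2 difference of -1.25. The ratio of miR-34 to miR-317 was 0.255, 0.292 and 0.268 in LQ1, LQ3 and LQ4, against 0.379, 0.461 and 0.344 in EQ1, EQ3 and EQ4 and 0.354 in EQ2, a log2 difference of -0.55. Neither ratio overlaps between instars, as was the case for 56.7% of all pairs. Of the 3 ratios, any pair fixes the other one, and each had an exact two-sided permutation p of 0.1, unchanged by Benjamini-Hochberg adjustment over the 3.

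**Figure D3:**
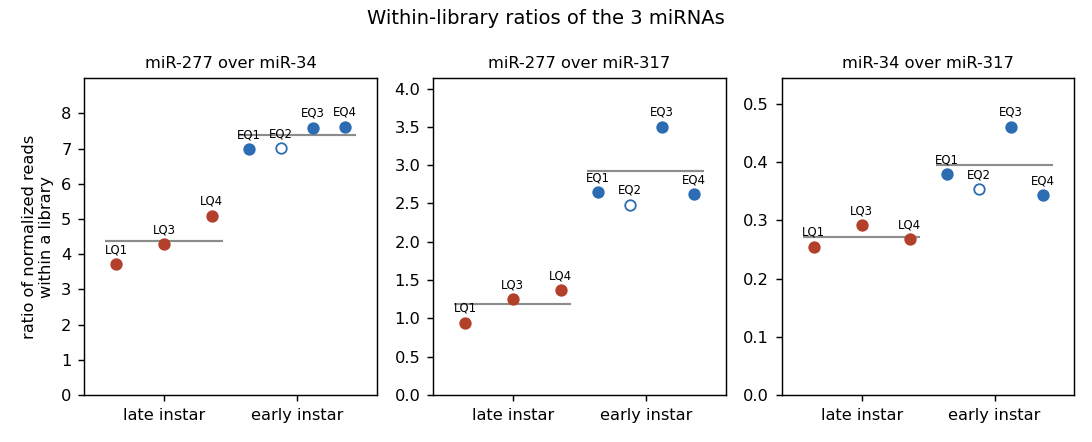
Ratio of normalized reads within each library for the 3 pairs of miRNAs, late instar (red) left of early instar (blue), with EQ2 as an open point. Lines are means of the 3 filled points of an instar and each axis starts at 0. All late-instar points lie below all early-instar points in each panel, as for miR-277 over miR-34 with 3.71 to 5.09 against 6.97 to 7.62.

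The study sampled early- and late-instar larvae of a colony as a pair, and equal replicate numbers were taken to mark a colony. miR-34 was higher in the late-instar pool of each, with log2 differences of 0.36 in colony 1, 0.68 in colony 3 and 0.42 in colony 4. Its ranges do not overlap between instars, so that direction holds however the pools are paired and adds nothing to the separation. miR-277 was lower in the late-instar pool of each, by values near 0 in colonies 3 and 4 (log2 differences of -0.07 and -0.10) and larger in colony 1 (-0.49). The ratio of miR-277 to miR-34 was lower in all 3 late-instar pools, with log2 differences of -0.84, -0.75 and -0.51 in colonies 1, 3 and 4. Its direction was likewise fixed under any pairing, since the ratio does not overlap between instars.

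Whether miR-34 passed the test depended on how the libraries were scaled. On the deposited scale the median log2 fold change of all rows tested was -0.15. Scaling each library by its median ratio to the row geometric means moved that median to 0.14, and 44.0% of rows passed, split as 22 higher and 22 lower where the deposited scale gave 16 and 27. On that scale miR-34 rose in late instars (log2 fold change 0.79, SE 0.20, limma adjusted p = 0.00744). Scaling each library to its own total, after which 44.4% of rows passed, gave miR-34 a log2 fold change of 0.56 (SE 0.20, limma adjusted p = 0.0363). miR-277 did not pass on any of the 3 scales, and its sign turned, with 0.12 after median-ratio scaling (limma adjusted p = 0.647) and -0.14 after own-total scaling. Scaling divides a library by a factor common to its rows, so distances from the median of all rows could hardly move. miR-34 stood above that median by 0.64, 0.67 and 0.65 on the deposited, own-total and median-ratio scales, miR-317 by 1.19, 1.23 and 1.23, and miR-277 differed from it by -0.07, -0.03 and -0.02.

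**Figure D4:**
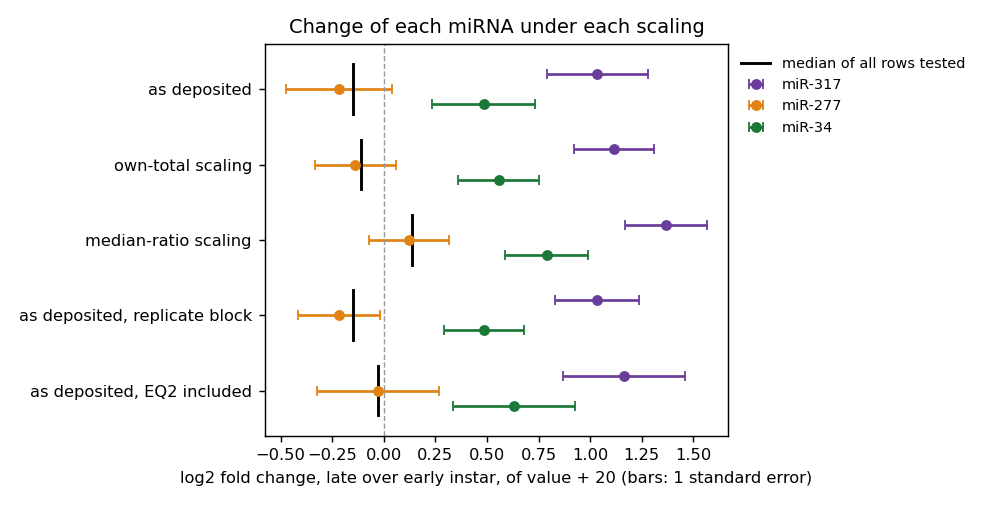
Log2 fold change of value + 20, late over early instar, of miR-317 (purple), miR-277 (orange) and miR-34 (green) under 5 settings, with bars of 1 standard error. Black ticks mark the median of all rows tested. miR-277 sits near the tick, miR-34 to its right and miR-317 farther right in each setting, while the dashed line at 0 changes sides of miR-277 after median-ratio scaling. Scaling shifts ticks and points nearly alike, and the replicate block moves neither.

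The study's own measure of change, the log2 offset fold change, sets the smallest value of the higher instar plus 20 over the largest value of the lower instar plus 20, for miRNAs whose ranges do not overlap. Overlapping ranges were set to 0 here. The measure was 0 for miR-277, 0.12 for miR-34 and 0.81 for miR-317. None of these 3 reached the study's criterion of 1 in size, which 12 of the 123 rows (9.76%) reached in these libraries. The study applied its offset to reads scaled to a fixed library total. Whether the deposited values share that scale is not known here, so the criterion may not carry over exactly. With an offset of 5 the measure was 0 for miR-277 and 0.14 for miR-34.

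Of the other precursors on the scaffold, none of the 4 that were tested passed limma's threshold, which 43.0% of all rows passed. Log2 fold changes were -0.61 for MCD999 (limma adjusted p = 0.120), 0.30 for MC1017 (0.496), -0.28 for miR-996 (0.495) and 0.02 for miR-279 (0.943). MC1003 was under the filter, with means of 8.33 normalized reads in late-instar and 8.67 in early-instar larvae.

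A list of miRNAs tied in Drosophila to the timing of hormone-driven development held 6 names, all with a row, and 7 of its sequences were tested. Of these, 3 rose in late instars, 3 fell and 1 did not pass, against 43.0% of all rows called. The median log2 fold change was 0.26, beside -0.15 for all rows. let-7 and miR-100, which in flies come from 1 transcript switched on at metamorphosis, rose by 1.13 and 1.95 on the log2 scale (limma adjusted p = 0.00122 and 1.86e-06). let-7 had 1950, 2776 and 3075 normalized reads in LQ1, LQ3 and LQ4, against 896, 1387 and 1229 in EQ1, EQ3 and EQ4. The 5′ arm of miR-125, from that same fly transcript, had a log2 fold change of 0.26 (adjusted p = 0.496), and its 3′ arm was under the filter. bantam, which promotes growth in flies, fell by 1.06 (adjusted p = 0.00122). After median-ratio scaling 3 of the 7 rose, 1 fell and 3 did not pass, where 44.0% of all rows passed. On the deposited scale the list thus holds changes larger than that of miR-34 in both directions.

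A list of miRNAs tied to insect energy metabolism, the field in which fly miR-277 is placed, held 5 names, of which 4 had a row. miR-305 is not analysed here. Among 6 sequences tested, 2 rose, 2 fell and 2 did not pass, against 43.0% of all rows called, and their median log2 fold change was -0.16, beside -0.15 for all rows. The lists share 3 of these sequences, miR-8 and both arms of miR-14, so 3 of the 4 calls are the ones already counted among the hormone miRNAs. miR-8, which acts on insulin signalling in the fly fat body, rose by 0.97 (limma adjusted p = 0.00241), and so did the 3′ arm of miR-278, a miRNA of the insulin response in flies, by 1.21 (adjusted p = 0.000506). Both arms of miR-14, which limits fat storage in flies, fell, the 5′ arm by 0.87 and the 3′ arm by 0.89 (adjusted p = 0.00600 and 0.00935), but neither passed after median-ratio scaling (adjusted p = 0.0906 and 0.0547). The 5′ arm of miR-278 (log2 fold change -0.13) and miR-33 (-0.19), a miRNA of lipid metabolism, did not pass, as was the case for miR-277. After median-ratio scaling 5 sequences of the list were tested, of which 2 rose and 0 fell, where 44.0% of all rows passed.

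Over the 6 libraries of both instars, the profile of log2(value + 20) most like that of miR-277 among 96 other distinct sequences was MC1395 (Pearson r = 0.93), followed by the 3′ arm of miR-276 (0.88) and miR-307b (0.86). None of these passed the test between instars, which 43.0% of the 100 rows tested passed. They were picked for likeness to miR-277, which did not pass, over the same libraries, so this is no separate result. For miR-34 the most alike were miR-3715 (0.98), the 5′ arm of miR-316 (0.94) and miR-275 (0.89). miR-3715 and miR-275 passed the test between instars (limma adjusted p = 0.0396 and 1.21e-05) and the arm of miR-316 did not (0.180). They too were picked over the same libraries, for likeness to miR-34. miR-34 was higher in each late-instar library than in any early-instar one, so their calls are no separate result either. Values of miR-3715 were low, with means of 19.3 normalized reads in late-instar and 4.67 in early-instar larvae. Its early-instar mean was below the minimum value of the filter, so it was tested largely through its late-instar values. Values of MC1395 were low too, with means of 24 and 36.7. miR-317 came in place 4 for miR-34 (r = 0.88), and miR-277 in place 38 (r = 0.16). For miR-277, miR-34 was in place 63 and miR-317 in place 88 (r = -0.26). These correlations are descriptions over 6 points that share library scaling and the split by instar. The sequence nearest to miR-277 on the scaffold was not among those most like it in level.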

How the data were processed

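The authors ligated small RNA of pooled larvae to a 3′ adapter with 4 random bases, meant to lessen sequence bias, and sequenced it. After trimming, reads were placed on genome build v.1.0 by PatMaN with at most 1 mismatch. The study also aligned reads to the known Hexapoda miRNAs of miRBase and summed them over a region of variants of each miRNA. Which of these steps gave the deposited values is not known here. The deposited score per predicted miRNA and library is a whole number that was treated as a rounded, normalized read value. The study's text speaks of raw counts, but library sums follow the miRNA share of each library and not its number of miRNA reads, so no count model was used, the depth behind a value is unknown, and no counting interval is given. Sums over all rows were 193303 to 259624 in late-instar libraries, 234595 to 244868 in EQ1, EQ3 and EQ4, and 148819 in EQ2. Another 7 per-sample columns were not used, so caste comparisons are not analysed here.

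limma 3.58.1 (R 4.3.3) was fitted to log2(value + 20) for rows with at least 10 in at least 3 libraries, which 100 of 123 rows passed, both miRNAs among them, with Benjamini-Hochberg adjustment. This scale understates changes of low values. Changes are late over early instar. Single values were tested by exact permutation over libraries (Python 3.11.15, scipy 1.17.1, numpy 2.4.6, pandas 2.3.3), precursors were folded with RNAfold 2.7.2, and matplotlib 3.10.9 made the figures. Simulated data with known changes were used to check limma's step. The planted changes were larger than those of miR-277, miR-34 and miR-317, and no scaling error was planted. The check therefore does not cover changes of their size or the choice of scale. P-values of the main tests measure the spread between colony pools within an instar, without the pairing of instars by colony. limma moderates that spread over all rows tested.

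The study pairs instars within colonies. That equal numbers mark a colony was assumed, since its tables name colonies differently. Deviations from the instar means correlated at 0.02, 0.08 and 0.46 between same-numbered libraries over 97 sequences and between -0.44 and 0.34 for other pairs. The replicate block was run as an alternative, beside other pseudocounts, filters, scalings, EQ2 included and each library left out. Scalings combined with EQ2 or the block, and all alternatives for miR-317, were chosen after seeing the data.

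The miRNAs and lists were chosen with earlier results of these data known. Named are miR-277 and miR-34, miR-317, other precursors on the scaffold, any sequence sharing a seed with them, the members of both lists, and the 3 sequences most like miR-277 and miR-34 in level.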

Additional observations from a re-analysis of the deposited data

Results flagged for a closer look

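In the 4 early-instar libraries, the miR-317 value of EQ2 stood apart from the others. EQ2 had 209 normalized reads of miR-317 and EQ1, EQ3 and EQ4 had 297 to 314, so the gap between EQ2 and its nearest neighbour was 0.838 of the whole range, past Dixon's 95% critical value for 4 libraries. The same check was made on 6 values and ratios, and chance flags about 1 in 20 groups. As a share of the EQ2 table miR-317 was at 0.149%, beside 0.129% to 0.143% in EQ1, EQ3 and EQ4. No ratio between the 3 miRNAs was set apart in this way in EQ2.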

How the results depend on the processing

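The miR-277 to miR-34 ratio was lower in late instars under all 10 alternatives, with log2 differences of -0.81 to -0.53 (-0.81 to -0.59 with a library left out, and exact p = 0.25 with the replicate block, the smallest that 3 pairs allow). Its sign could not turn with a library left out, since the instars do not overlap, and the block does not alter the difference. miR-277 was not called under any of 18 alternatives (limma adjusted p 0.225 to 0.955). Its log2 fold change turned positive under median-ratio scaling, alone (0.12), with the replicate block (0.12) or with EQ2 included (0.13), settings in which the median of all rows was above 0 as well. With a library left out it ran from -0.40 to -0.03. miR-34 was positive under all 17 alternatives that gave it a value (the filter at a mean of 200 removed it) and passed limma's threshold under 5. Those were own-total scaling (0.56), median-ratio scaling (0.79), the same with EQ2 included (0.56 and 0.78), and median-ratio scaling with the replicate block (0.79). With a library left out miR-34 ran from 0.31 to 0.59, where its sign could not turn, as its ranges do not overlap. The replicate block alone, no filter, and each mature sequence taken once leave the value of miR-34 unchanged. Its log2 offset fold change of 0.12 was 0.45 after median-ratio scaling. The replicate block alone changed no call of the 3 miRNAs (limma adjusted p = 0.0658 for miR-34 and 0.450 for miR-277), and the number of rows called was 43 with it and without it. miR-317 was called under all 18 alternatives (0.88 to 1.37). Rows called numbered 24 of 47 under the filter at a mean of 200, against 43 of 100, and 33 to 39 with a library left out.

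With 3 libraries per instar the smallest exact p is 0.1, so the ratios rest on separation between libraries, which 56.7% of all pairs of sequences showed, and not on a p-value. Scaling moves the miR-34 call, and the deposited values do not say which scale is right. The libraries are pools of whole larvae, and tissue and single larvae were not resolved.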

Other observations

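The table holds 9 pairs of neighbouring precursors on 1 strand, less than 30 kb apart, with both mature sequences tested. Of these, miR-317 and miR-277 lie 25905 bases apart, and every other pair at most 6037. The difference in log2 fold change within a pair ranged from 0.31 for miR-996 and miR-279 to 2.16 for miR-252b and miR-252, which moved in opposite directions. miR-317 and miR-277 (1.25) were in place 2 by this difference and miR-277 and miR-34 (0.70) in place 5. Only the mature sequence listed first for a precursor was used. Pairs that rest on its other arm are not counted, and the places could shift with them. let-7 and miR-100, which both rose, differed by 0.82, and miR-13b and miR-71, with log2 fold changes of -1.60 and -2.24, by 0.64. Pairs share miRNAs, so these values are given as a description. The names of pairs outside the rule for named miRNAs were chosen after their values were seen. The study probed miR-71 and miR-275 by Northern blot, in other colonies, and reports that the blots did not bear out their differences.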
